A study of Mus musculus with 18 samples.

Results

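The loci of 9 regulators of blood stem and progenitor cells, Runx1, Runx2, Runx3, Myb, Gfi1, Gfi1b, Lmo2, Flt3 and Kit, were examined for binding of both C/EBP factors (C/EBPα and C/EBPβ) and of PU.1. A locus was the annotated gene span plus 50 kb on either side, and the 9 were taken by name from 22226 gene loci. They held 232 of the 94979 bound elements found in the genome, of which 66 lay at Runx1, 36 at Runx2, 18 at Runx3, 37 at Myb, 18 at Gfi1, 15 at Gfi1b, 25 at Lmo2, 17 at Flt3 and 0 at Kit. Of the 232, 104 were called for C/EBPα in at least 1 library (44.8%, genome 38.0%), 49 for C/EBPβ (21.1%, genome 17.9%) and 162 for PU.1 (69.8%, genome 73.8%). The study follows C10 cells, 1 mouse pre-B cell line derived from HAFTL cells that carries a fusion of C/EBPα with the estrogen receptor, as they turn into macrophage-like cells. All induced samples received β-Est, which moves the fusion into the nucleus, together with IL-3 and CSF-1, and control cells received 0.1% ethanol, the solvent. Chromatin immunoprecipitation followed by sequencing (ChIP-seq) gave 8 libraries of C/EBPα (0 hr post-induction (hpi), 10, 30 and 60 min, and 3, 12, 24 and 48 hpi) and 5 each of C/EBPβ and PU.1 (0, 3, 12, 24 and 48 hpi). The fusion is part of every sample, the 0-hpi cells included, and an antibody to C/EBPα cannot separate the fusion from endogenous C/EBPα. The labelled cell type could not be checked by marker genes, as no expression data were analysed here.

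Runx1, Runx2 and Runx3 encode the DNA-binding subunits of core binding factor, of which Runx1 is required for the emergence of blood stem cells. Myb, Gfi1 and Gfi1b are transcription factors of progenitors, the first an activator and the Gfi proteins repressors, whereas Lmo2 bridges DNA-bound factors in a shared complex and Flt3 and Kit are the receptor tyrosine kinases through which progenitors receive growth signals. C/EBPα and C/EBPβ bind the same palindromic consensus, and PU.1, an Ets factor of both B cells and macrophages, binds purine-rich sites, often at enhancers far from gene starts.

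Elements are named by gene and distance from the gene's annotated start, with positive distances in the direction of transcription. The 200 bp of the element with the most C/EBPα reads are shown for the 7 loci where it lay outside exons, on the plus strand of mm9, with matches to the C/EBP (TTGCNNAA), PU.1 (GAGGAAGT) and RUNX (TGTGGTT) consensus on either strand in capitals. They lie at chr16:92715801-92716000 (Runx1), chr17:44846901-44847100 (Runx2), chr4:134759301-134759500 (Runx3), chr10:20803501-20803700 (Myb), chr5:108178601-108178800 (Gfi1), chr2:103787101-103787300 (Lmo2) and chr5:148200601-148200800 (Flt3).
Runx1 +110.4 kb: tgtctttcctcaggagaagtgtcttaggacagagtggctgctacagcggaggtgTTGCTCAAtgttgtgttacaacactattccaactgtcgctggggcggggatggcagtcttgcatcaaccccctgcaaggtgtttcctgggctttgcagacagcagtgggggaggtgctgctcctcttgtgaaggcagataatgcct
Runx2 +104.7 kb: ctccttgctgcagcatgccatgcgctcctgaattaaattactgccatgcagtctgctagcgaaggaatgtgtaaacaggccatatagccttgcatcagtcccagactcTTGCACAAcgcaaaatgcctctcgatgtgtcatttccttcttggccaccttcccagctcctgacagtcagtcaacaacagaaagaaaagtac
Runx3 +82.8 kb: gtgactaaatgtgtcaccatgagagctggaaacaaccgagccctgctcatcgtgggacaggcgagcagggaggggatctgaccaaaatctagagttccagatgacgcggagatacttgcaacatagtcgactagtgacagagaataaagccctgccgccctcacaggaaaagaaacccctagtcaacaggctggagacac
Myb +77.2 kb: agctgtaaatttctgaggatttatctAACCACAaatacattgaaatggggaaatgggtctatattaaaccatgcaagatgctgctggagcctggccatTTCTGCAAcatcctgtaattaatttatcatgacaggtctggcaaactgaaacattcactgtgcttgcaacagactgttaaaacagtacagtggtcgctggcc
Gfi1 -23.6 kb: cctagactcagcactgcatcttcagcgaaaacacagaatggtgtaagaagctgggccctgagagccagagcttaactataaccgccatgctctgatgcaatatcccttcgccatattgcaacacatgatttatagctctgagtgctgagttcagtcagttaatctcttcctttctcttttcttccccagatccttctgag
Lmo2 -10.9 kb: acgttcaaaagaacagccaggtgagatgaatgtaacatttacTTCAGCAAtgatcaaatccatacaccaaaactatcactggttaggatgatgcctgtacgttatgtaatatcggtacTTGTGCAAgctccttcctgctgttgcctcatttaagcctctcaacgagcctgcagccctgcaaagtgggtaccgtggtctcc
Flt3 +11.4 kb: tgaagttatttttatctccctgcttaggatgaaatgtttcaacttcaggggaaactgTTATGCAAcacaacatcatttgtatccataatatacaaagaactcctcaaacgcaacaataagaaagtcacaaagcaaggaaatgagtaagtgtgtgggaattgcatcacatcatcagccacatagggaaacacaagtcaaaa

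A pair of further elements is shown for contrast and was chosen after their values were seen. Myb +4.4 kb (chr10:20876301-20876500, in an intron) had the most C/EBPβ reads of any element in the 9 loci and carried 2 matches to the C/EBP consensus. Runx1 -48.2 kb (chr16:92874401-92874600, between genes) had the most PU.1 reads and carried the PU.1 consensus.
Myb +4.4 kb: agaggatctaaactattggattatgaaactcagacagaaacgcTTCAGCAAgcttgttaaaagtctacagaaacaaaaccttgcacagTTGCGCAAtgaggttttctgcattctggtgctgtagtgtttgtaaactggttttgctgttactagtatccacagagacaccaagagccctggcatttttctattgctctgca
Runx1 -48.2 kb: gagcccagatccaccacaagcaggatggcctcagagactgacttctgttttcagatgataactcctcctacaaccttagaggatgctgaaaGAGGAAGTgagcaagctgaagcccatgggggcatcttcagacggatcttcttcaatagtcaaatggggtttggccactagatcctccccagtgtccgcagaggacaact

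Of the 7 elements picked by C/EBPα reads, 5 held the C/EBP consensus, with 2 matches at Lmo2 -10.9 kb, and Myb +77.2 kb also held the RUNX consensus. Those of Runx3 and Gfi1 held none of the consensus sequences searched, which says only that these letters are not in the window. Across the 9 loci, 38 of 104 C/EBPα elements (36.5%) held the C/EBP consensus, beside 31.5% of C/EBPα elements in the genome. The PU.1 consensus was found in 30 of 162 PU.1 elements (18.5%, genome 23.1%), and the RUNX consensus in 19 of all 232 elements (8.19%, genome 6.83%). All these shares lay near those of the genome.

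After repeated positions on a strand were reduced to 1 read, C/EBPα libraries held between 5968544 and 24909437 reads. Those of C/EBPβ were the shallowest (2901164 to 5843194), and those of PU.1 held 6574957 to 11349498. Each factor and time point had 1 library, so values are given with exact 95% Poisson intervals, which cover counting error only, and no test between libraries is made. An element is a 200-bp window with a site in at least 1 of the 18 libraries, and a site needed a Poisson p of at most 1e-07 over the genome mean and 4 times the density of the surrounding 10 kb. Values are reads in the 200 bp per 10000000 reads of the library. More than 1000 bp from any element, the loci held 0.542 to 1.64 reads per 200 bp on this scale. A difference is called where the ratio was at least 2 with at least 10 reads in the higher library. The number of sites called moves with depth, and the C/EBPα libraries of 10, 30 and 60 min came from another sequencer than all others and have reads of 50 bases, against 36 or 40. On chromosome 5, which carries Gfi1, Flt3 and Kit, these 3 libraries had 1.25 to 1.29 times the genome's read density, against 1.06 to 1.13 times in the other 15. The summed C/EBPα values of Gfi1 and Flt3 are also given below divided by this density. Its part in the early values of single elements was not tested.

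C/EBPα calls at these loci were most numerous in the first hours after induction, as they were in the whole genome. Of 104 C/EBPα elements, 4 were called at 0 hpi, 26 at 10 min, 51 at 30 min, 71 at 60 min, 66 at 3 hpi, 40 at 12 hpi, 34 at 24 hpi and 25 at 48 hpi. The genome counts were 2387, 8602, 15720, 22101, 20878, 11343, 8872 and 7770, so the loci held 1.68 elements per 1000 of the genome at 0 hpi and 3.02 to 3.83 at the later times. The first call fell at 0 hpi or within 60 min of induction at 82 of 104 elements (78.8%), beside 70.0% in the genome. C/EBPα reads were highest between 30 min and 12 hpi at 94 of 104 (90.4%, genome 85.3%). No C/EBPα element of the 9 loci was first called at 48 hpi (0 of 104, genome 2.60%). The order of the highest counts depended on depth. With every C/EBPα library thinned to 5968544 reads, the calls were 2, 10, 30, 43, 57, 40, 30 and 21 over the 8 time points. The highest number was then at 3 hpi, as in the thinned genome counts (14257). Without the 10, 30 and 60 min libraries, 76 of the 104 C/EBPα elements remained, beside 26784 of 36092 in the genome. C/EBPβ was called at 2 elements at 0 hpi, 19 at 3 hpi, 10 at 12 hpi, 23 at 24 hpi and 41 at 48 hpi (1, 13, 10, 22 and 28 when thinned to 2901164 reads). The genome counts of 928, 5810, 3117, 6467 and 14115 followed the same course, with 2.16 to 3.56 per 1000 at the loci. PU.1 was called at 72, 82, 125, 114 and 96 elements at 0, 3, 12, 24 and 48 hpi (68, 82, 97, 87 and 79 when thinned to 6574957 reads). In the genome it was called at 29325, 32700, 54604, 41556 and 38698, also with the highest number at 12 hpi, and the loci held 2.29 to 2.74 per 1000. Thinned genome counts were likewise highest at 48 hpi for C/EBPβ (9243) and at 12 hpi for PU.1 (43225).

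**Figure D1:**
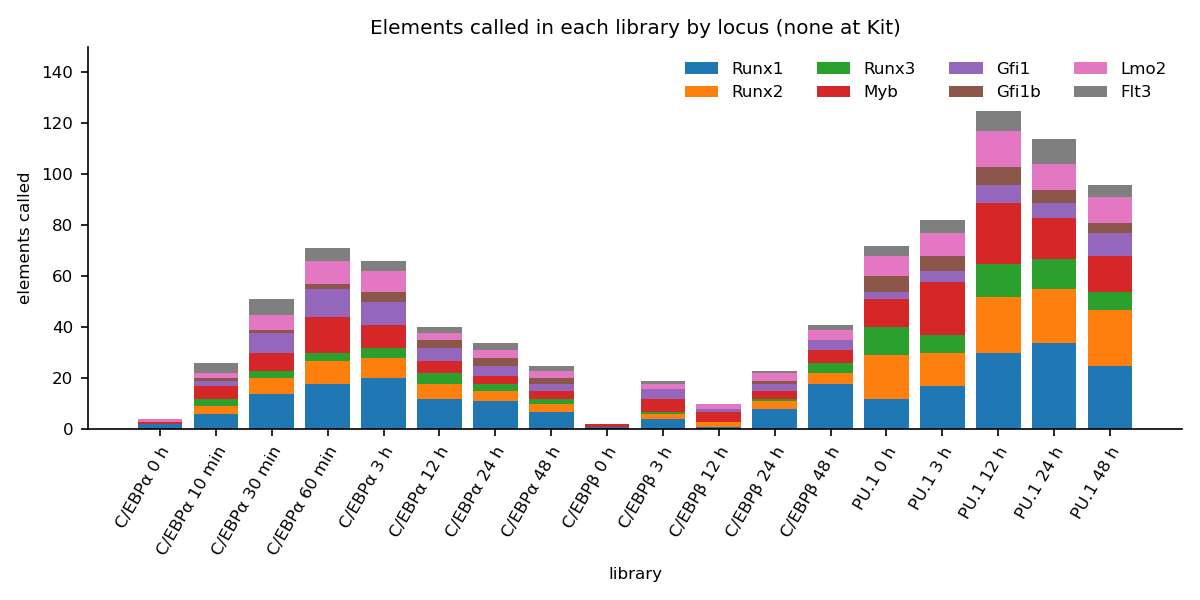
Number of elements called (y axis) in each of the 18 libraries (x axis), stacked by locus, with Kit at 0. The C/EBPα bars are tallest at 60 min (71) and 3 hpi (66), which thinned to equal depth gave 43 and 57, the C/EBPβ bar at 48 hpi (41) and the PU.1 bar at 12 hpi (125).

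An element that was called through a single library had to be high there, so the shares that follow describe the loci beside the genome and are no evidence of change by themselves. C/EBPα was called at 48 hpi at 25 of 104 elements (24.0%, 95% exact binomial interval 16.2 to 33.4), beside 21.5% of C/EBPα elements in the genome. Between 3 and 48 hpi, C/EBPα reads were called lower at 55 of the 72 elements with enough reads (76.4%, genome 65.8%), by a median of 5.00-fold, and the interval of the ratio stayed above 1 at 44 of the 55. They were higher at 48 hpi than at 3 hpi at 3 of the 72 (4.17%, genome 8.25%), Runx2 +104.7 kb (3.36-fold, 2.33 to 4.94), Gfi1 +17.6 kb (7.69-fold, 1.68 to 71.4) and, between genes, Runx1 -41.5 kb (2.33-fold, 1.09 to 5.23). The call at Gfi1 +17.6 kb rested on 11 and 2 reads and was lost with thinned libraries (7 and 0 reads, 2.33-fold against the limit of 3 reads, 0.533 to 14.0). With reads moved 50 or 100 bp the ratio was 12.6 (1.74 to 552) and 6.29 (1.30 to 59.9), but 9 reads fell short of the limit of 10. Against 0 hpi, C/EBPα at 48 hpi was called higher at 20 of the 22 elements with enough reads (90.9%, genome 74.7%) and lower at 0 of 22 (genome 8.24%). The interval stayed above 1 at 17 of the 20, and 82 of the 104 elements had fewer than 10 reads in both libraries.

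C/EBPβ was called at the most elements at 48 hpi, largely at positions that were also called for C/EBPα. No C/EBPβ library lies between 0 and 3 hpi. Of its 49 elements, 41 were called at 48 hpi (83.7%, genome 83.2%), and reads were highest at 48 hpi at 31 (63.3%, genome 68.3%). From 0 to 48 hpi C/EBPβ was called higher at 32 of 32 elements with enough reads (genome 96.6%) and lower at 0 (genome 0.361%). Of the C/EBPβ elements, 41 were also C/EBPα elements (83.7%, genome 76.7%), which is 39.4% of the C/EBPα elements (genome 36.1%). At these 41 shared elements the order of the factors was close to that of the genome's shared elements. C/EBPα was highest by 12 hpi and C/EBPβ at 24 or 48 hpi at 25 of them (61.0%, genome 60.4%), both were highest by 12 hpi at 10 (24.4%, genome 21.4%), both at 24 or 48 hpi at 6 (14.6%, genome 17.5%), and the reverse order was found at 0 (genome 0.683%).

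At 0 hpi PU.1 had more calls than either C/EBP factor, although this was the lowest count of its own 5 libraries. Counts of different antibodies also differ in depth and enrichment. It was called at 0 hpi at 72 of its 162 elements (44.4%, genome 41.8%), at 48 hpi at 96 (59.3%, genome 55.2%) and in all 5 libraries at 46 (28.4%, genome 24.7%). From 0 to 48 hpi it was called higher at 44 of 112 elements with enough reads (39.3%, genome 35.8%) and lower at 16 (14.3%, genome 18.4%), and the interval of the ratio stayed past 1 at 31 of the 44 and 11 of the 16. Of the C/EBPα elements, 39 were called for PU.1 at some time (37.5%, genome 38.6%). At 20 of the 104 (19.2%, genome 20.2%) PU.1 was called at 0 hpi in the same element (39 of 104, 37.5%, genome 31.2%, with a summit within 1000 bp), at 19 it was called after induction alone, and at 65 it was not called. The loci thus stood close to the genome in these shares, and they differed from each other element by element.

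At Runx1, the highest C/EBPα element of the 9 loci lay at +110.4 kb, in the long intron between the distal and the proximal start, 18327 bp from the nearest annotated Runx1 start. C/EBPα read 31.6 (21.0 to 45.6) at 0 hpi, then 97.2, 200 and 141 at 10, 30 and 60 min, and 174, 243 (205 to 286), 169 and 118 (95.5 to 145) at 3, 12, 24 and 48 hpi. It was 1 of 3 elements called in all 8 C/EBPα libraries (3 of 104, 2.88%, genome 2.36%), and the level at 48 hpi was 3.74 times that at 0 hpi (2.43 to 5.93). C/EBPβ read 16.3, 47.9, 62.0, 67.2 and 122 over its 5 libraries, 7.48 times higher at 48 than at 0 hpi (3.42 to 19.4), or 14.0 times with thinned libraries. The C/EBPα level at 48 hpi was 0.678 times that at 3 hpi (0.524 to 0.871), or 0.506 times with repeated reads kept. PU.1 read 5.67 to 13.4 there. A neighbouring element, Runx1 +110.0 kb, chosen after its values were seen, showed the opposite makeup, with PU.1 at 59.6, 68.4, 49.5, 25.6 and 30.6 and C/EBPα at 9.23 or below in all 8 libraries. C/EBP and PU.1 reads at this site thus sat on adjacent but separate windows.

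Runx1 also held the highest PU.1 element, at -48.2 kb. PU.1 read 257 (221 to 297) at 0 hpi and 205, 156, 131 and 181 (156 to 208) afterwards, a ratio of 1.42 (1.15 to 1.75) between 0 and 48 hpi that did not reach 2. C/EBPα stayed at 7.54 or below. The first intron, which is known to hold an enhancer active in blood stem cells, contained a pair of PU.1 elements whose courses parted. At +24.2 kb, PU.1 read 32.6, 44.1, 76.5, 22.0 and 7.64, 4.27 times lower at 48 than at 0 hpi (1.84 to 11.0), while C/EBPα read 5.64 at 0 hpi, 38.5 at 12 hpi and 8.80 at 48 hpi. At +25.0 kb, named after its values were seen, PU.1 read 58.1, 74.5, 85.9, 58.2 and 66.9, with a ratio of 1.15 (0.772 to 1.74). Whether either element is the known enhancer was not tested.

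Near the Runx1 starts, C/EBPα binding was weak. At -0.1 kb, at the distal start, PU.1 read 39.7, 60.8, 30.8, 30.0 and 35.4, and C/EBPα 10.1 or below. At +129.1 kb, 373 bp from the proximal start, C/EBPα read 2.26 at 0 hpi, 6.82, 21.5 and 21.0 at 10, 30 and 60 min, 13.5 at 3 hpi and 3.77 at 48 hpi. The element at +130.3 kb, 105 bp from another annotated start, was called at 60 min alone, at 12.3. At +129.1 kb the ratio of 3 to 48 hpi was 3.57 (1.01 to 19.3) on 15 and 3 reads, and no difference was called with thinned libraries (5 and 3 reads).

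At Runx2, which is best known as the regulator of bone formation, the C/EBPα sum over all elements came to 326 (294 to 362) after 3 h, 327 (282 to 376) after 12 h and 260 after 48 h, while the element with the most reads was highest at 48 hpi. At this element, +104.7 kb, in an intron, C/EBPα read 2.26, 2.41, 3.85 and 8.70 from 0 hpi to 60 min and 37.7, 67.0, 73.8 and 127 (103 to 154) from 3 to 48 hpi. The ratio of 48 to 0 hpi was 56.3 (15.2 to 471, on 2 reads at 0 hpi). With thinned libraries it held no read at 0 hpi, and the ratio to 3 reads set in place of 0 was 24.3 (8.0 to 121). C/EBPβ followed the same course, from 0 reads at 0 hpi through 15.4, 34.5 and 76.9 to 169 (136 to 209). Against 3 reads set in place of 0, the ratio was 24.2 (8.01 to 120), or 14.3 (4.59 to 72.2) with thinned libraries. PU.1 read 8.60 or below and was not called. At +160.1 kb, named after its values were seen, the course was the reverse, with C/EBPα at 3.38, 19.7, 86.9, 74.2, 87.2, 67.0, 26.4 and 18.9. The gene thus held an early and a late C/EBPα element in its introns.

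PU.1 elements of Runx2 lay elsewhere. The highest, at +37.1 kb, lay 255 bp from a start of the overlapping gene Supt3h, and PU.1 read 51.1, 42.6, 89.6, 56.4 and 30.6 there. At +114.3 kb PU.1 read 1.42, 1.52, 8.40, 4.41 and 16.2, 11.5 times higher at 48 than at 0 hpi (1.79 to 479, on 1 read at 0 hpi), with C/EBPα at 1.32 or below. With thinned libraries it held 8 reads and 1 read and was not called, and with reads moved 50 bp it held 16 and 0 reads (at least 3.59 times). At +79.5 kb, in a coding exon 115 bp from an annotated start, C/EBPα was called at 12 hpi alone, at 15.1.

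At Runx3, a factor of T cells and myeloid cells, the highest C/EBPα element lay at +82.8 kb, past the end of the gene. C/EBPα read 3.38, 17.3, 52.3 and 37.4 from 0 hpi to 60 min and 52.1, 31.8, 19.8 and 10.1 (4.34 to 19.8) from 3 to 48 hpi, 5.18 times lower at 48 than at 3 hpi (2.46 to 12.6). C/EBPβ read 4.67, 13.7, 17.2, 9.61 and 29.6, so the level at 48 hpi was the highest for C/EBPβ and the lowest after induction for C/EBPα. PU.1 was called in all 5 libraries at this element, at 15.6, 19.8, 14.9, 10.6 and 9.56. At +85.8 kb PU.1 read 55.3, 111, 107, 92.5 and 44.9, with most reads in the middle of the course. At +4.7 kb, in an intron, PU.1 read 18.4, 10.6, 3.73, 1.76 and 1.91, 9.65 times lower at 48 than at 0 hpi (2.18 to 88.1, on 2 reads at 48 hpi, or 16.3 times with reads moved 50 bp). At the start inside the gene, +32.4 and +33.1 kb, PU.1 was highest at 12 hpi, at 36.4 at both, and C/EBPα was not called.

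**Figure D2:**
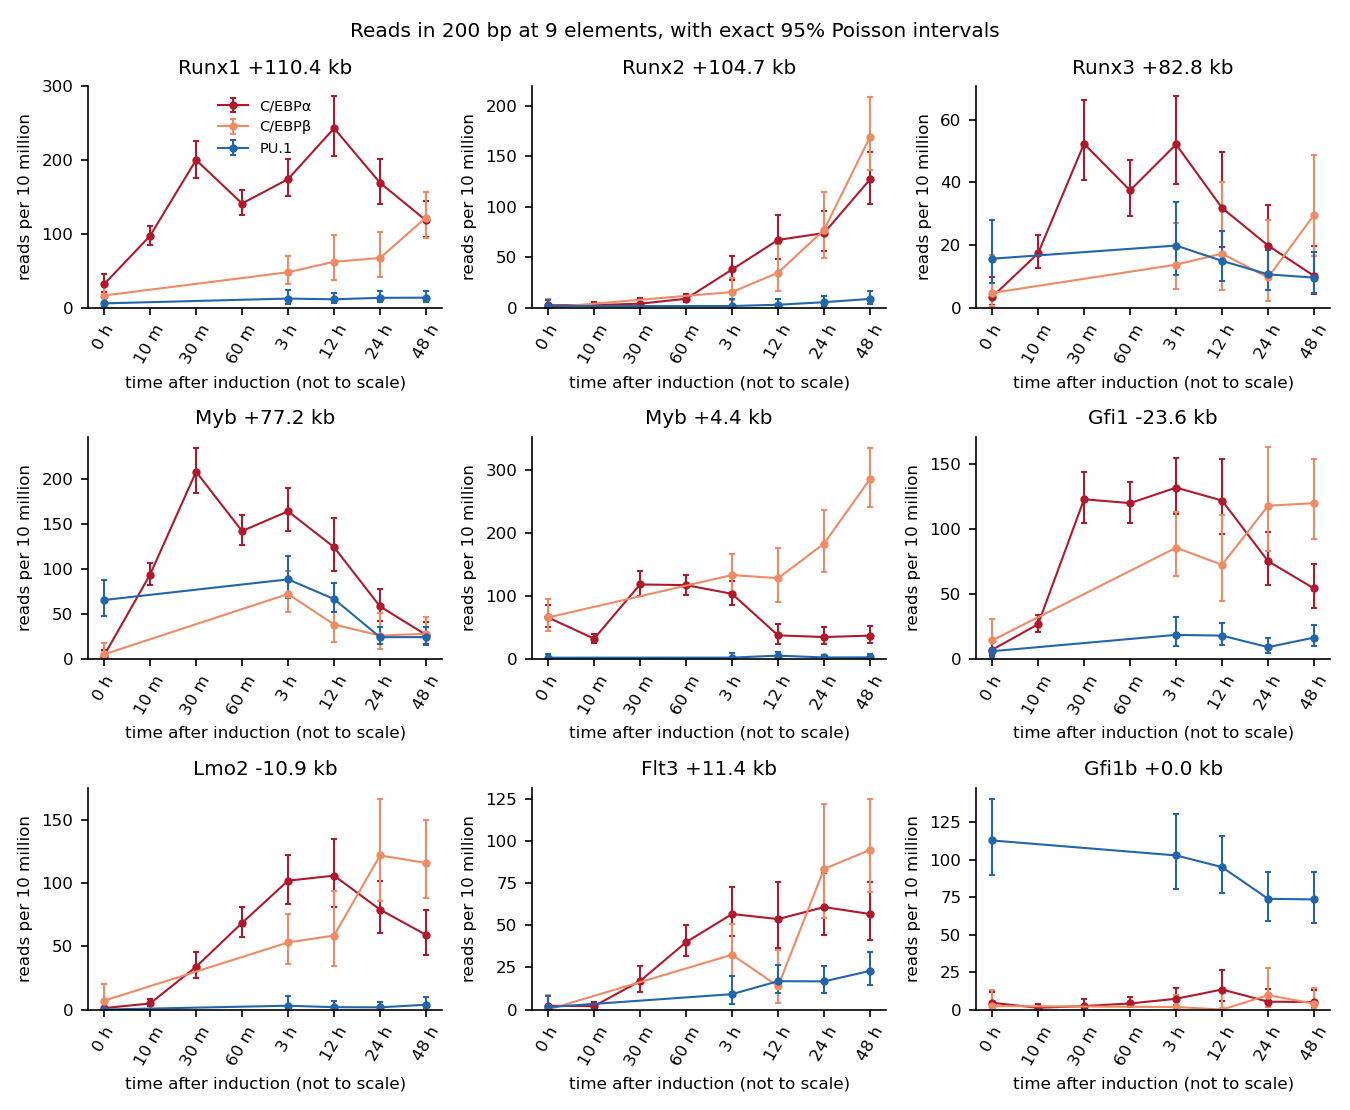
Reads in 200 bp per 10000000 (y axis, from 0) at 9 elements over time (x axis, not to scale) for C/EBPα, C/EBPβ and PU.1, with exact 95% Poisson intervals as bars and lines that join libraries, also across times with no library of that factor. C/EBPα at Runx2 +104.7 kb climbed to 127 at 48 hpi, at Myb +77.2 kb it went from 208 at 30 min to 26.4, and at Gfi1b +0.0 kb PU.1 read 73.6 to 113 and C/EBPα 13.4 at most.

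Myb, an activator that keeps progenitors dividing, had 12.5 C/EBPα elements per 100 kb, the densest of the 9 loci, which was above 99.3% of all genes. At +77.2 kb, past the far end of the gene and 42974 bp from the nearest start, that of Ahi1, C/EBPα read 3.38 (0.698 to 9.89) at 0 hpi and 93.5, 208 (184 to 235) and 142 at 10, 30 and 60 min, followed by 164, 124, 58.0 and 26.4 (16.3 to 40.4) from 3 to 48 hpi. The level at 48 hpi was 6.23 times below that at 3 hpi (3.96 to 10.3) and still 7.80 times that at 0 hpi (2.33 to 40.9), or 3.82 times in 400 bp (1.60 to 10.5). PU.1 was there before induction and also declined, reading 65.2, 88.2, 66.3, 23.8 and 23.9, 2.73 times lower at 48 than at 0 hpi (1.64 to 4.64). C/EBPβ read 4.67, 71.9, 37.9, 25.6 and 27.6. All 3 factors thus had fewer reads at 48 than at 3 hpi at this element.

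Inside Myb, at +14.5 kb in an intron, named after its values were seen, the course was alike. C/EBPα read 3.38, 13.6, 102, 122, 194, 129, 62.0 and 16.3, 11.9 times lower at 48 than at 3 hpi (6.80 to 22.7). C/EBPβ read 7.01, 145, 55.2, 48.0 and 21.7, and PU.1 was highest at 3 hpi, at 22.8. At +4.4 kb, also in an intron, both C/EBP factors were present before induction, at 65.4 each. C/EBPα read 31.7, 118 and 117 at 10, 30 and 60 min and 103, 36.9, 34.3 and 36.5 from 3 to 48 hpi, so the level at 48 hpi was 0.557 times that at 0 hpi (0.344 to 0.885), which did not reach the 2-fold limit. C/EBPβ instead read 133, 128, 183 and 286 (241 to 336) from 3 to 48 hpi, 4.37 times its level at 0 hpi (2.90 to 6.81). PU.1 was at 4.67 or below.

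**Figure D3:**
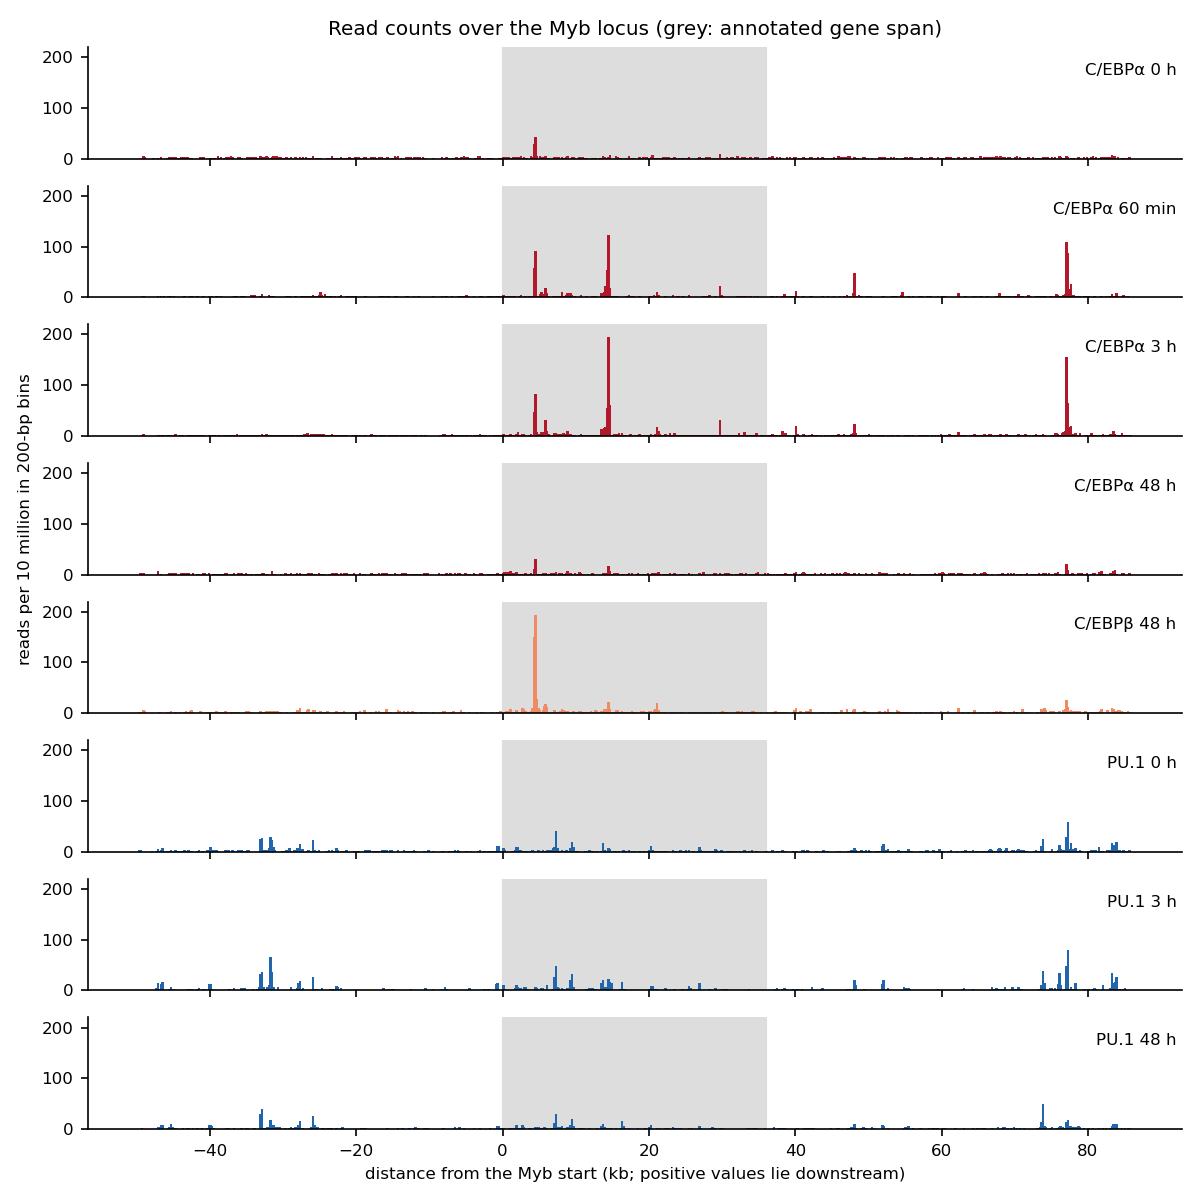
Reads per 10000000 in fixed 200-bp bins (y axis, 0 to 220 in every panel) over the Myb locus by distance from the gene's start (x axis, kb), in 8 of the 18 libraries, with the gene span in grey. C/EBPα stands at +4.4, +14.5 and +77.2 kb at 60 min and 3 hpi, is lower at 48 hpi, and C/EBPβ at 48 hpi stands at +4.4 kb.

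At Gfi1, a repressor that acts in stem cells, lymphoid cells and granulocytes, the strongest C/EBPα binding lay upstream, in an intron of the neighbouring gene Evi5. At -23.6 kb C/EBPα read 6.77 at 0 hpi, 26.5, 123 and 120 at 10, 30 and 60 min, and 132 (112 to 155), 122, 75.2 and 54.1 (39.1 to 72.8) from 3 to 48 hpi. It remained 7.99 times above 0 hpi (3.39 to 23.0) while being 2.44 times below 3 hpi (1.73 to 3.52). C/EBPβ read 14.0, 85.6, 72.4, 118 and 120, and PU.1 5.67, 18.3, 17.7, 8.81 and 16.2, with a PU.1 ratio of 2.86 whose interval reached below 1 (0.934 to 11.7), or 4.33 with thinned libraries (1.19 to 23.7). C/EBPβ was thus highest at 24 and 48 hpi, when C/EBPα had declined, although levels cannot be compared between antibodies. The values of 10, 30 and 60 min here and at Flt3 carry the higher chromosome 5 density given above (1.25 to 1.29 times).

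The Gfi1 span and starts come from an entry that the annotation used here types as a processed transcript, and all Gfi1 distances rest on it. Closer to this start, C/EBPα was present early and was not called at 48 hpi. At -0.1 kb, 144 bp from the start, it read 5.64, 8.03, 26.2, 35.8, 46.7, 48.6, 23.7 and 8.80, and was 5.31 times lower at 48 than at 3 hpi (2.40 to 13.9). This window holds both the C/EBP and the RUNX consensus and was the only one within 500 bp of a member's start where C/EBPα passed 25 reads on this scale. A pair of elements named after their values were seen was shorter still. At -1.2 kb C/EBPα read 2.26, 2.01, 31.5, 75.2, 36.8, 5.03, 3.96 and 1.26, and at -3.6 kb 2.26, 4.82, 75.4, 80.9, 36.0, 25.1, 2.64 and 1.26, so that each had 1 read at 48 hpi. PU.1 at -3.6 kb was called in all 5 libraries, at 21.3, 59.3, 35.5, 13.2 and 29.6, and at -1.2 kb it read 3.73 or below. The highest PU.1 element, +17.6 kb, past the gene's end, read 28.4, 68.4, 67.2, 30.8 and 19.1 for PU.1, while C/EBPα there was 13.8 at 48 hpi (12.3 times 0 hpi, 1.78 to 528, on 1 read at 0 hpi). That C/EBPα call was lost with thinned libraries (7 reads) and with reads moved 50 or 100 bp (9 reads). The moved reads gave 10.0 times over 1 read (1.39 to 440) and 3.34 times over 3 reads set in place of 0 (0.835 to 19.2). At -38.6 kb, in a coding exon of Evi5, PU.1 went from 1.42 to 19.1 (13.5 times, 2.16 to 559, on 1 read at 0 hpi, or 6.51 times in 400 bp).

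Gfi1b is the Gfi protein of the erythroid and megakaryocytic lineages. Of its 15 elements, 10 were called for PU.1 (66.7%, genome 73.8%), 6 for C/EBPα (40.0%, genome 38.0%) and 1 for C/EBPβ (genome 17.9%). The 1 C/EBPβ element was not called for C/EBPα, where 76.7% of the genome's C/EBPβ elements were, and a single element gives no share. At its start, +0.0 kb, PU.1 read 113 (90.0 to 141), 103, 95.2, 74.0 and 73.6 (58.1 to 92.0), and at +30.3 kb 106, 92.8, 122, 115 and 179 (154 to 206). The ratios between 48 and 0 hpi were 0.649 (0.468 to 0.898) and 1.68 (1.28 to 2.23), in opposite directions and both short of 2-fold. At +16.0 kb PU.1 read 14.2, 3.04, 1.87, 5.29 and 1.91, 7.42 times lower at 48 hpi (1.58 to 69.7, on 10 and 2 reads), a call that was lost with thinned libraries and with reads moved 50 or 100 bp because 7 to 9 reads were left at 0 hpi, while the ratio remained 4.50, 5.18 and 11.9 times lower. The C/EBPα element with the most reads, +39.0 kb, lay 8 bp from the start of Gtf3c5 and read 25.1 at 12 hpi, 14.5 at 24 hpi and 8.80 at 48 hpi, against 6.77 at 0 hpi. Of the 6 C/EBPα elements of Gfi1b, 2 were called at 48 hpi (genome 21.5%). By the limits of 10 reads and 2-fold, none was called different between 0 and 48 hpi. Low reads limited this comparison, and it does not show steady binding. Over the 9 loci, 82 of the 104 C/EBPα elements had fewer than 10 reads in both libraries, Gfi1b +39.0 kb among them.

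At Lmo2, a pair of C/EBPα elements lay close together upstream of the gene. At -10.9 kb C/EBPα read 1.13 at 0 hpi and 4.82, 33.8 and 68.6 at 10, 30 and 60 min. From 3 to 48 hpi it read 102, 106 (81.1 to 135), 79.1 and 59.1 (43.4 to 78.6). The ratio of 48 to 0 hpi was 52.4 (8.96 to 2113, on 1 read at 0 hpi). With thinned libraries it was 11.7 (3.68 to 59.3), against 3 reads set in place of 0. C/EBPβ read 7.01, 53.1, 58.6, 122 and 116, 16.6 times higher at 48 than at 0 hpi (5.41 to 82.8), and PU.1 3.82 or below. At -11.9 kb, named after its values were seen, C/EBPα was called in all 8 libraries, at 11.3, 14.9, 36.9, 44.5, 44.9, 43.6, 44.8 and 28.9, and C/EBPβ went from 2.34 to 74.9. PU.1 had its highest element of the locus next to them, at -12.8 kb, with 32.6, 44.1, 34.5, 21.1 and 22.9. Of these neighbours, -11.9 kb was thus called for C/EBPα already at 0 hpi and -10.9 kb after induction alone. The level of -11.9 kb at 0 hpi was close to the minimum of 10 reads that a site needed in that library. At the internal start, +12.2 kb, PU.1 read 39.7, 31.9, 27.1, 15.9 and 15.3, 2.60 times lower at 48 hpi (1.36 to 5.14), and C/EBPα read 8.80 or below. The other elements at that cluster of starts, +11.1, +11.5, +11.8 and +13.1 kb, read 13.7 or below for every factor.

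At Flt3, the receptor for Flt3 ligand, 2 of 8 C/EBPα elements were called at 48 hpi, near the genome's share of 21.5%. The one with the most reads, +11.4 kb, in an intron, read 2.26, 2.01, 16.9 and 39.9 from 0 hpi to 60 min and 56.6, 53.6, 60.7 and 56.6 (41.3 to 75.7) from 3 to 48 hpi, a ratio of 1.0 (0.672 to 1.5) between 3 and 48 hpi and of 25.1 (6.55 to 213, on 2 reads at 0 hpi, or 45.7 with reads moved 100 bp) against 0 hpi. C/EBPβ read 0, 32.5, 13.8, 83.3 and 94.6, at 48 hpi 13.5 times 3 reads set in place of 0 (4.35 to 67.8). PU.1 appeared there after induction, at 1.42, 9.13, 16.8, 16.7 and 22.9 (14.7 to 34.1), 16.2 times higher at 48 than at 0 hpi (2.64 to 665, on 1 read at 0 hpi, or 28.3 times in 400 bp). All 3 factors were thus higher at 48 hpi than before induction at this element. It was also named as 1 of the 3 largest rises of both C/EBPα and PU.1, so these rises follow in part from that choice. The element was 1 of 23 of the loci called for all 3 factors (9.91% of 232, genome 6.99%). The highest PU.1 element, -48.7 kb, lay in an intron of Pan3 and read 4.25, 7.60, 6.53, 7.93 and 28.7. At the start, -0.0 kb, PU.1 was highest at 12 hpi, at 17.7, and C/EBPα read 5.27 or below.

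Kit, the receptor for stem cell factor, had no called site of any factor. Its locus of 181807 bp held 171 to 2080 reads per library, so reads were present, and no 200-bp window reached the number of reads a site needed in any of the 18 libraries. The fullest window held 6 reads at 0 hpi and 6 at 48 hpi for C/EBPα (minimum 10 in both), 4 and 4 for C/EBPβ (minimum 8) and 4 and 5 for PU.1 (minimum 9 and 11). In the deepest library, C/EBPα at 10 min, it held 13 where 15 were needed. Sites weaker than these minimums were not detectable at this depth.

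**Figure D4:**
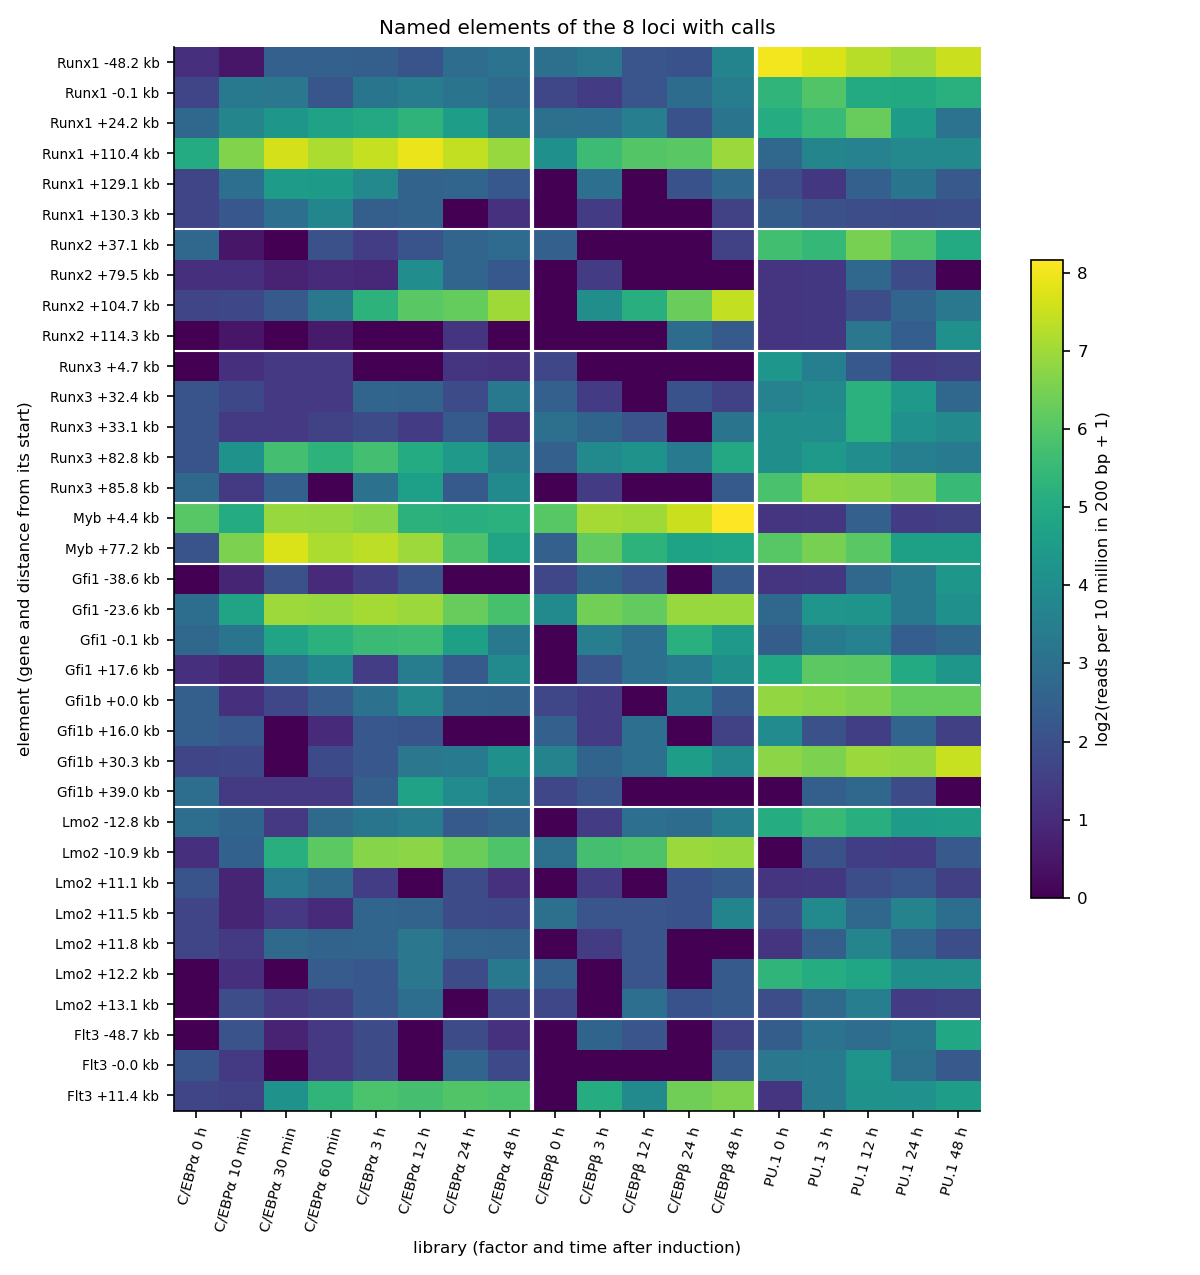
Heat map of the named elements (rows, by gene and distance from its start) in the 18 libraries (columns), coloured by log2 of reads per 10000000 in 200 bp plus 1. The C/EBP columns and the PU.1 columns are bright at different elements in most rows, for example Runx1 +110.4 kb against Runx1 -48.2 kb, with Myb +77.2 kb bright in both. Many rows were picked as the highest of 1 factor in a locus, which favours this pattern. Over all C/EBPα elements of the loci, 37.5% were also called for PU.1 (genome 38.6%).

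Of 14 elements within 500 bp of an annotated start of their own gene, 7 were called for C/EBPα (50.0%), 2 for C/EBPβ (14.3%) and 11 for PU.1 (78.6%). Over all elements within 500 bp of a gene start in the genome, these shares were 39.3%, 14.6% and 80.5%. At 48 hpi, 0 of the 7 were called for C/EBPα (genome 29.8%). Over all 232 elements, 129 lay in introns and 90 between genes. Of the 25 elements with C/EBPα at 48 hpi, 21 also had C/EBPβ (84.0%, genome 76.4%) and 11 had PU.1 at that time (44.0%, genome 54.0%). The member itself had the nearest start at 189 of the 232 elements, and other genes were nearer to the rest. At Flt3 it had the nearest start at 6 of 17 elements and at Gfi1b at 7 of 15, so most elements counted for these 2 loci lay nearer to the start of another gene.

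Summed over all elements of a locus, C/EBPα reads at Gfi1 were 507 (476 to 539) at 60 min and 467 (428 to 509) at 3 hpi, against 36.1 at 0 hpi and 111 at 48 hpi. At Flt3 they lay between 139 and 154 at 60 min and 3, 12 and 24 hpi, against 40.6 and 118. Divided by the density of chromosome 5 in each library, Gfi1 read 393 at 60 min and 414 at 3 hpi and Flt3 119 to 131 over those 4 times, so the time of the highest sum was not settled at either locus. The sums were highest at 3 hpi at Runx1 (812, against 194 and 450) and Myb (730, against 161 and 163), and at 3 hpi with 12 hpi not apart in counting error at Lmo2 (324, against 77.8 and 170). Those of 3 and 12 hpi were also not apart at Runx2 (326 and 327, against 74.4 and 260) and Runx3 (154 and 174, against 58.6 and 104), nor those of 12 and 24 hpi at Gfi1b (124 and 96.3, against 57.5 and 71.7). The near equal sums of Myb at 0 and 48 hpi join opposite changes, 7.80 times higher at +77.2 kb and 0.557 times at +4.4 kb. At 48 hpi the C/EBPα sums of Myb and Gfi1 were furthest below their highest. Those of the other loci with elements stayed nearer to it, Runx2 and Flt3 among them. C/EBPβ sums were highest at 48 hpi at Runx1, Runx2, Runx3, Lmo2 and Flt3, with 763, 384, 134, 327 and 168, and at Lmo2 and Flt3 not apart from those at 24 hpi. At the other 3 the highest sum, at 3 hpi at Myb (537, against 499 at 48 hpi), 24 hpi at Gfi1 (253, against 217) and 0 hpi at Gfi1b (77.1, against 49.3), was not apart from that at 48 hpi in counting error. All these sums include elements not called for the factor, such as those called for PU.1 alone. No element of Gfi1b was called for C/EBPβ at 0 or 48 hpi.

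A C/EBPα element called at 48 hpi was present at 8 of the 9 loci (88.9%), beside 41.7% of all 22226 gene loci. It was present at 9 of 16 other regulators of blood progenitors and 0 of 10 genes silent in blood cells. The members and both lists were chosen with earlier results of these data known, so the contrast is a description only. Silence in blood cells was not measured here. The locus of 1 silent gene, Cdx2, shares 76530 bp and 5 elements with that of Flt3, and without Cdx2 the count was 0 of 9. Within the gene spans alone, 4 of the 9 members held such an element (44.4%), beside 12.6% of all genes. Longer loci hold more elements, so the density was compared as well. C/EBPα elements per 100 kb were 12.5 at Myb, 11.9 at Gfi1, 9.69 at Lmo2, 8.93 at Runx1, 5.33 at Gfi1b, 5.08 at Runx3, 4.71 at Flt3, 2.63 at Runx2 and 0 at Kit. The median was 5.33, beside 1.74 over all genes, 3.78 over the other progenitor regulators and 1.82 over the silent genes (1.76 without Cdx2). PU.1 elements per 100 kb had a median of 9.14, beside 4.42 over all genes, 7.88 over the other progenitor regulators and 2.38 over the silent genes (1.94 without Cdx2). Among the other progenitor regulators, Hhex (8.35), Lyl1 (6.78) and Etv6 (6.58) were the densest for C/EBPα, and Cd34, Gata1, Hoxa9, Mecom and Meis1 had no C/EBPα element. A C/EBPα element called in at least 1 library was present at 15903 of all 22226 gene loci, 8 of the 9 members and 11 of the 16 other progenitor regulators. It was also present at 7 of the 10 silent genes, so their 0 of 10 holds for 48 hpi alone. Loci without one, such as that of Kit, were thus common in the genome. Kit also held no PU.1 element, while the 5 regulators without C/EBPα held 2 to 10.

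**Figure D5:**
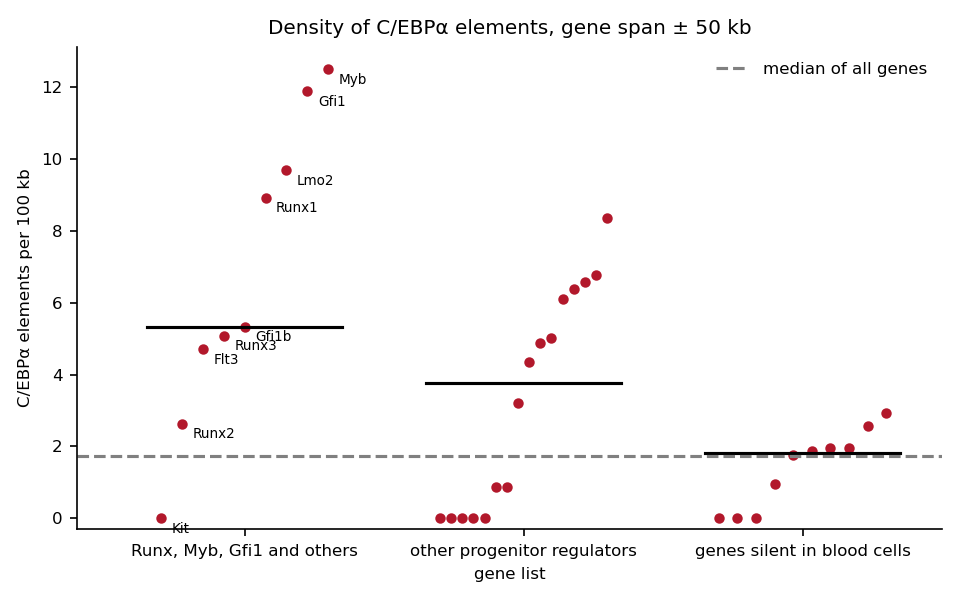
C/EBPα elements per 100 kb of locus (y axis) for the 9 genes, 16 other progenitor regulators and 10 genes silent in blood cells (x axis), 1 point per gene, with the median of each list as a black bar and the median of all genes (1.74) dashed. Myb and Gfi1 lie above all others, at 12.5 and 11.9, and Kit lies at 0. The genes shown were chosen with earlier results of these data known.

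By the pattern of summed element reads over the 18 libraries, the gene most like each member was H3f3a for Runx1 (Pearson r 0.985), Apbb1ip for Runx2 (0.991), Bcor for Runx3 (0.981), Rbm17 for Myb (0.972), Agpat9 for Gfi1 (0.975), Cox8a for Gfi1b (0.987), Arl8b for Lmo2 (0.980) and Enpp4 for Flt3 (0.954). The points of each correlation are the same 18 libraries of 3 antibodies and share their depth and enrichment, so the values describe likeness only.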

How the data were processed

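The study sequenced ChIP DNA of 3 factors (both C/EBP proteins and PU.1) from C10 cells on Illumina instruments. The deposited files list the positions of aligned reads, 1 line per read. Per the methods, the authors used either ELAND or Bowtie to place reads on mm9, allowing no mismatch, and kept neither multiply aligned nor identical reads. Which aligner was used for which library, and all tool versions, are not given in the sources used here, and the C/EBPα library of 3 hpi still held 2.51% of reads at repeated positions. The labels and the methods differ in the β-Est concentration (100 nM and 100 µM). The authors' own peaks, the histone marks and PU.1 at 10, 30 and 60 min were not analysed here.

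From these positions, reads were counted with 1 per position and strand, the 5′ end moved 75 bp inward, in 200-bp windows at 100-bp steps, and scaled to 10000000 reads. A site needed a Poisson p of at most 1e-07 over the genome mean (2000000000 bp), 4 times the density of the surrounding 10 kb with a local p of at most 0.0001, and summits 400 bp apart, which came to a minimum of 7 to 15 reads by library. Summits of all libraries within 200 bp made 1 element. Spans and starts came from GENCODE vM1 and sequences from NCBIM37, both of the files' build. Values have exact 95% Poisson intervals and ratios exact conditional binomial ones, 0 reads were set to 3 reads in a ratio, and repeated PCR or chromatin preparation is covered by neither. Groups followed the labels, with 1 library per factor and time, so no test between libraries was made. The members and gene lists were chosen with earlier results of these data known. Named elements were, by rule, those with the most reads of each factor in a locus, the 3 largest PU.1 and C/EBPα differences between 0 and 48 hpi in either direction, and those within 500 bp of a member's start. Where an element was named for its difference, a large ratio follows from that choice. The site calls and ratios were tested on simulated data. Python 3.11.15 with numpy 2.4.6, pandas 2.3.3, scipy 1.17.1, pysam 0.24.0 and matplotlib 3.10.9 was used.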

Additional observations from a re-analysis of the deposited data

How the results depend on the processing

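Of 152 counts and shares recomputed under 14 alternatives, 146 stayed within 1.5 times the count or within the exact interval of the share. With the gene span alone there were 54 C/EBPα, 25 C/EBPβ and 87 PU.1 elements, and 4 of the 9 loci held a C/EBPα element called at 48 hpi, beside 12.6% of all gene spans, since the flanks hold the rest. With a 1.5-fold limit, PU.1 was lower at 48 than at 0 hpi at 22.3% of elements (genome 25.3%), and with a PU.1 summit within 1000 bp, 37.5% of C/EBPα elements had PU.1 at 0 hpi (genome 31.2%). Of 312 ratios of named elements under the alternatives, 310 stayed within the interval of the reported ratio and none of the called ones changed direction. The exceptions were C/EBPα at 48 over 3 hpi at Runx1 +110.4 kb (0.506 with repeated reads kept) and C/EBPβ at 48 over 0 hpi at Flt3 +11.4 kb (68.4 in 400 bp, on 1 read at 0 hpi). Of 37 called ratios of named elements, 28 were called under every alternative run and 9, all on 17 or fewer reads, were not called under at least 1. Division of the summed C/EBPα reads by chromosome density, chosen after seeing the data, moved the highest sum from 60 min to 3 hpi at Gfi1 (414) and 24 hpi at Flt3 (131), and from 12 to 3 hpi at Runx2 (289).

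No replicate could be left out, as each factor and time point had 1 library, and all differences are between single libraries. No paired analysis was possible because the groups hold 1 library each and no test was made. Sites below 7 to 15 reads, by library, were not detectable, and C/EBPβ, with the fewest reads, was limited most.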
